A study of Rattus norvegicus with 4 samples.

Results

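The 9 genes described here restrain, or set the threshold of, signalling from immune receptors, and they were measured in mast cell preparations of diabetes-prone and diabetes-resistant BioBreeding rats. They were chosen by name: every probe set whose platform annotation gives 1 symbol, that of Ptpn6, Ptpn11, Inpp5d, Ptprc, Ptpn22, Ptpn2, Ptpn1, Csk or Cbl. These are 9 of the 14217 genes with such a probe set, and they have 17 of 20826 such probe sets. Cbl has 4 probe sets, 5 genes have 2 and 3 genes have 1. The heading "phosphatases" fits 7 of the 9, since Csk is a kinase and Cbl a ubiquitin ligase.

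The DRlyp/lyp group is the diabetes-prone one: female BioBreeding rats homozygous for lyp, a loss-of-function mutation of Gimap5 that leaves them with few peripheral T cells. The DR+/+ group is the resistant one: female BioBreeding rats of day 65, like the DRlyp/lyp rats, that carry the normal allele. In both groups cells positive for AA4, a surface marker of rat mast cells, were taken from the pancreatic lymph nodes, and the labels name no treatment. Each group is 1 pool of RNA from 8 rats. Independent amplification of a pool, done once per array, gave 2 arrays each and 4 in all. With 1 pool per group, the tests below set 1 pool against the other and measure the spread between amplifications, not between animals. The number of arrays limits the precision.

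Immune receptors such as the IgE receptor of mast cells and the antigen receptors of lymphocytes signal through Src-family kinases, which carry an inhibitory tyrosine near their end. Csk phosphorylates that tyrosine and CD45, the product of Ptprc, removes the phosphate. Further downstream, SHP-1, SHP-2 and SHIP are drawn by their SH2 domains to the phosphorylated tails of receptors and to adaptors, where they remove phosphate from proteins or, for SHIP, from a membrane lipid, and Cbl tags active kinases and receptors with ubiquitin.

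Some facts of the arrays bear on every value below. The defining mast cell transcript Kit, the stem cell factor receptor, was not above 11.3 on any array, below the filter of 28.3 for dim probe sets. Other mast cell transcripts were present: the carboxypeptidase Cpa3 had 527.8 and 515.6 signal units in the DRlyp/lyp pool, against 425.8 and 462.1 in the DR+/+ pool. The chymase Cma1 had 305.7 and 267.8 against 274.4 and 305.2, the IgE receptor chain Ms4a2 64.9 and 69.6 against 83.2 and 61.5, and the IgE receptor chain Fcer1a 107.5 on both DRlyp/lyp arrays against 82.8 and 42.8. Transcripts of other cell types stood beside them and differed between the pools. Of 17 tested T cell markers 15 were higher and 1 lower in DRlyp/lyp, with a summed signal of 11955.4 to 12095.0 on the DRlyp/lyp arrays against 2895.0 to 3133.1 on the DR+/+ arrays. The DRlyp/lyp rats are those described above as having few peripheral T cells, and why these markers were higher in their pool was not tested. Of 12 B cell markers 1 was higher and 7 lower (summed signal 30060.0 to 30863.1 against 33907.6 to 34861.2). Of 16 macrophage and dendritic cell markers 5 were higher and 9 lower (20548.5 to 20749.1 against 21777.5 to 22294.6). Of 9 tested genes of a pan-leukocyte list 6 were higher and 0 lower (37136.0 to 38529.3 against 30909.6 to 30957.1), and all 19 tested exocrine pancreas genes were higher (13231.5 to 13804.0 against 470.9 to 521.9). Most of these exocrine genes were below the filter on both DR+/+ arrays and were tested only through the DRlyp/lyp pool. Of 13 tested mast cell markers 6 were higher and 3 lower (7034.6 to 7338.8 against 4982.6 to 5008.3). Some moved more than the genes named above, and in both directions. The protease Mcpt1 had 1664.8 and 1601.9 in the DRlyp/lyp pool against 668.9 and 655.4 in the DR+/+ pool. The tryptase Tpsab1 had 29.8 and 19.9 in the DRlyp/lyp pool against 102.8 and 77.0 in the DR+/+ pool. Of 12 NK cell markers 6 were higher and 2 lower, of 5 neutrophil markers 3 and 0, of 6 plasma cell markers 2 and 1, of 4 erythroid markers 2 and 1, and of 6 endothelial and stromal markers 3 and 2. These counts use the threshold given below, which 42.0% of all 9349 genes tested passed (20.9% higher and 21.1% lower). The plasma cell share of 50.0% was near that. Some calls in these counts came from markers below the filter on both arrays of 1 pool. Mcpt4, Il1rl1 and Alas2, counted as higher, were below it in DR+/+. Cd4 and Ncr1, counted as lower, were below it in DRlyp/lyp. Each was tested only through the pool where it was brighter, so these calls carry no weight for the direction. No marker was at 0 on any array, and the defining markers Cd3e of T cells, Cd79b of B cells and C1qb of macrophages were above the filter on all 4. In these pooled samples fewer cells of a type and less RNA per cell cannot be told apart, and the part that the mix of cells has in the differences below was not tested. The log2 signal of the 3′ over the 5′ control probe set, which is larger for shorter amplified RNA, was 4.43 and 4.55 in the DRlyp/lyp pool against 3.01 and 3.1 in the DR+/+ pool for beta-actin, and 2.49 and 2.44 against 1.74 and 1.57 for GAPDH. Its part was not tested either.

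Of the 17 probe sets, 14 passed the filter on dim signal (above the pooled median of 28.3 on at least 2 of the 4 arrays), and each of the 9 genes kept at least 1. With limma, 8 of the 14 were past the threshold (an adjusted p under 0.05), or 57.1%, against 39.2% of all 16068 probe sets tested. Of these, 3 were higher in DRlyp/lyp (21.4%, against 19.3% of all) and 5 lower (35.7%, against 19.9% of all). The arrays of the pools did not overlap for 12 of the 14, or 85.7%, against 70.0% of all probe sets. The median size of the log2 difference was 0.40 for the members and 0.39 for all probe sets. A large share of the array differed between these pools, and a call of 1 member is to be read against that. The lower ones belonged to Ptprc, Csk, Ptpn6 and Inpp5d and the higher ones to Ptpn11, Ptpn2 and Cbl. No probe set of Ptpn22 or Ptpn1 was past the threshold. The members' share did not stay above that of all probe sets under every setting. Without an intensity trend in the variance prior 3 of 14 were called (Ptpn6, Ptpn11 and 1 set of Ptprc), or 21.4%, against 25.2% of all, which is below the background. Without a filter on dim probe sets it was 2 of 17 (Ptpn6 and the same set of Ptprc), or 11.8%, against 5.38% of all. Without DRlyp/lyp replicate 2 it was 6 of 14, or 42.9%, against 23.4% of all.

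**Figure D1:**
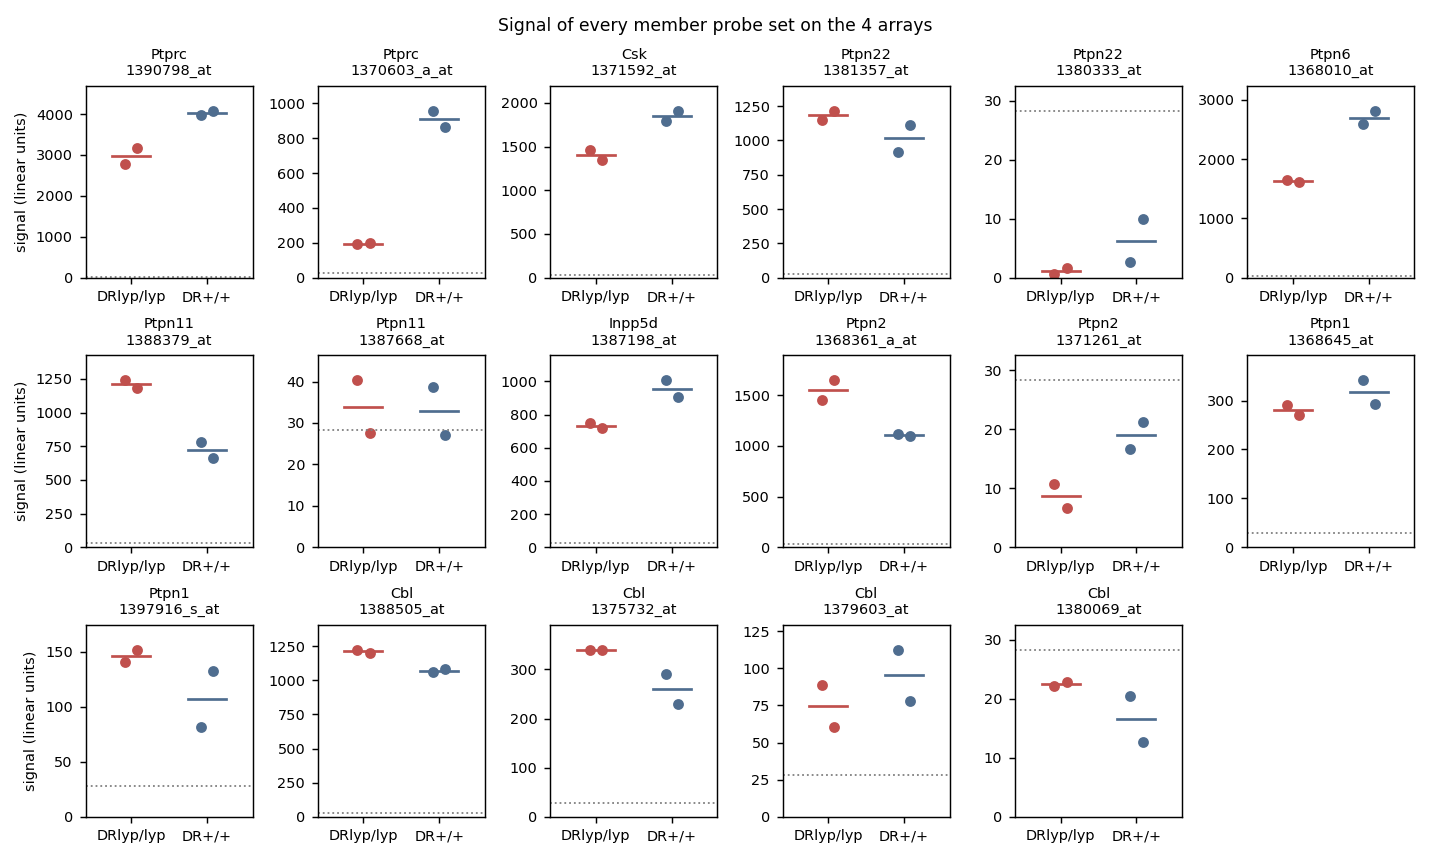
Signal in linear units (vertical axes, each starting at 0) of all 17 member probe sets on the 2 DRlyp/lyp arrays (left, red) and the 2 DR+/+ arrays (right, blue). Points are arrays, bars are means of the 2, and the dotted line is the filter of 28.3; both arrays of Ptpn6 are lower in the DRlyp/lyp pool and both arrays of 1388379_at of Ptpn11 higher.

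Ptprc encodes CD45, the receptor-type tyrosine phosphatase that all nucleated blood cells carry. Both of its probe sets were lower in the DRlyp/lyp pool, by very different amounts. The brighter one, 1390798_at, had 2767.9 and 3159.2 signal units in the DRlyp/lyp pool, against 3973.9 and 4079.9 in the DR+/+ pool. The other, 1370603_a_at, had 194.2 and 197.5 in the DRlyp/lyp pool, against 957.1 and 864.8 in the DR+/+ pool. In both the DRlyp/lyp arrays lay below the DR+/+ arrays with no overlap. The log2 difference was -0.45 for 1390798_at (95% interval -0.59 to -0.30, 1.36-fold lower, limma adjusted p = 0.000301) and -2.22 for 1370603_a_at (-2.47 to -1.97, 4.65-fold lower, adjusted p = 9.34e-08). The -2.22 is the largest difference among the 14, and 1.2% of all tested probe sets differed by more. The call of 1390798_at was lost without a filter (adjusted p = 0.121) and without the intensity trend (0.0714), whereas that of 1370603_a_at held under all 12 alternatives tried. The log2 ratio of the dimmer to the brighter set within an array was -3.83 and -4.0 in the DRlyp/lyp pool and -2.05 and -2.24 in the DR+/+ pool. Its change of -1.77 does not depend on how an array was scaled. An exact permutation test cannot give less than p = 0.333 with 2 arrays against 2, and it gave that value here. CD45 transcripts are spliced into several isoforms, and in the array maker's naming the ending _a_at marks a set that reads several transcripts of 1 gene. Where each set lies along the transcript was not used here, so whether isoform choice or the length of the amplified RNA (the beta-actin values above) moved with this gap was not tested.

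Csk, the kinase that phosphorylates the inhibitory tyrosine of Src-family kinases, was lower in the DRlyp/lyp pool. Its 1 probe set had 1456.0 and 1343.5 signal units in the DRlyp/lyp pool, against 1795.8 and 1909.1 in the DR+/+ pool, with no overlap. The log2 difference was -0.40 (-0.57 to -0.24, 1.32-fold lower, limma adjusted p = 0.00121). The call was lost without a filter (adjusted p = 0.0919) and without the trend (0.0764). Csk and Ptprc, whose products act on the same tyrosine in opposite ways, were thus both lower.

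Ptpn22 encodes a tyrosine phosphatase that binds Csk and dephosphorylates Src-family and Syk-family kinases, and its human homologue is known for an allele linked to type 1 diabetes. The probe set 1381357_at had 1150.0 and 1215.5 signal units in the DRlyp/lyp pool, against 918.0 and 1112.1 in the DR+/+ pool. The DRlyp/lyp arrays were both above the DR+/+ arrays, but the gap between the 2 DR+/+ arrays was larger than that between the pools' nearest arrays. The log2 difference was 0.23 (0.01 to 0.44) and not past the threshold (limma adjusted p = 0.0872). The value turned on which DR+/+ array was kept: it was 0.09 without DR+/+ replicate 1 (adjusted p = 0.453) and 0.37 without DR+/+ replicate 2 (adjusted p = 0.0144, past the threshold). With the replicate number as a block it was past the threshold too (adjusted p = 0.0216). The other set, 1380333_at, was below the filter on all arrays, at 0.7 and 1.7 in the DRlyp/lyp pool against 2.7 and 9.9 in the DR+/+ pool, and was not tested.

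The tyrosine phosphatases with SH2 domains went opposite ways. Ptpn6 encodes SHP-1, the blood cell phosphatase that inhibitory receptors recruit. Its 1 probe set had 1653.6 and 1608.6 signal units in the DRlyp/lyp pool, against 2585.5 and 2815.9 in the DR+/+ pool. The lowest DR+/+ array was far above the highest DRlyp/lyp array. The log2 difference was -0.73 (-0.87 to -0.58, 1.65-fold lower, limma adjusted p = 1.02e-05), and the call held under all 12 alternatives, with an adjusted p of at most 0.0448.

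Ptpn11 encodes SHP-2, which is found in nearly all cells and which mostly promotes Ras signalling downstream of growth factor and cytokine receptors. Its probe set 1388379_at had 1239.2 and 1185.5 signal units in the DRlyp/lyp pool, against 781.6 and 661.0 in the DR+/+ pool. These arrays did not overlap, and the log2 difference was 0.75 (0.54 to 0.97, 1.69-fold higher, limma adjusted p = 0.000107). The second set, 1387668_at, lay near the filter, at 40.3 and 27.6 in the DRlyp/lyp pool against 38.8 and 27.1 in the DR+/+ pool. Its arrays overlapped and its log2 difference was 0.04 (-0.80 to 0.89), an interval that holds the value of the brighter set's 0.75. Its sign turned with quantile normalization (-0.04) and with array medians made equal (-0.07). With the mean of both sets Ptpn11 differed by 0.40 and was not past the threshold (adjusted p = 0.0968), and with no filter on dim sets the brighter set missed it as well (adjusted p = 0.0791).

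The log2 ratio of Ptpn6 to Ptpn11 within an array, from the brighter set of each, was 0.42 and 0.44 in the DRlyp/lyp pool, against 1.73 and 2.09 in the DR+/+ pool. The ratio compares changes, not amounts of the transcripts, because the sets differ in brightness for other reasons too. It averaged 0.43 ± 0.02 in the DRlyp/lyp pool and 1.91 ± 0.26 in the DR+/+ pool (SD, n = 2 arrays each), a difference of -1.48. The exact permutation p was 0.333, the smallest that 2 against 2 arrays allow. With the mean of each gene's probe sets the difference was -1.12.

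Inpp5d encodes SHIP, the blood cell inositol phosphatase that removes a phosphate from the lipid made by PI3 kinase and in mouse mast cells limits degranulation. Its 1 probe set had 747.3 and 718.6 signal units in the DRlyp/lyp pool, against 1006.9 and 906.4 in the DR+/+ pool. The pools did not overlap. The log2 difference was -0.38 (-0.58 to -0.18, 1.3-fold lower, limma adjusted p = 0.00623). Leaving out DRlyp/lyp replicate 2 ended the call (adjusted p = 0.0744), as did dropping the filter (0.11) or the trend (0.0892).

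Ptpn2 and Ptpn1 encode TC-PTP and PTP1B, closely related phosphatases that act on Jak kinases and on cytokine and growth factor receptors. The Ptpn2 set 1368361_a_at had 1453.0 and 1646.3 signal units in the DRlyp/lyp pool, against 1121.5 and 1095.6 in the DR+/+ pool. It was higher with no overlap, by 0.48 on the log2 scale (0.30 to 0.66, 1.4-fold, limma adjusted p = 0.000762), a call lost without a filter (0.0957) and without the trend (0.0599). The second Ptpn2 set, 1371261_at, was below the filter throughout, at 10.8 and 6.7 in the DRlyp/lyp pool against 16.7 and 21.2 in the DR+/+ pool, and was not tested.

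The Ptpn1 sets pointed in different directions and neither was past the threshold. The set 1368645_at had 290.3 and 270.2 signal units in the DRlyp/lyp pool, against 341.4 and 291.9 in the DR+/+ pool, a log2 difference of -0.17 (-0.47 to 0.13, limma adjusted p = 0.345). The set 1397916_s_at had 140.8 and 151.9 in the DRlyp/lyp pool, against 81.9 and 132.8 in the DR+/+ pool, a difference of 0.49 (-0.03 to 1.0, adjusted p = 0.123). Its DR+/+ arrays were far apart, and the difference was 0.14 without DR+/+ replicate 1 (adjusted p = 0.591) and 0.84 without DR+/+ replicate 2 (adjusted p = 0.0149, past the threshold). The ending _s_at marks a set whose probes may read transcripts of more than 1 gene.

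Cbl encodes the ubiquitin ligase that ends signalling by tagging Src-family and Syk-family kinases and receptors, the IgE receptor among them. Its brightest set, 1388505_at, had 1223.4 and 1200.5 signal units in the DRlyp/lyp pool, against 1060.3 and 1081.8 in the DR+/+ pool. These arrays did not overlap, but the log2 difference of 0.18 (0.01 to 0.35) was not past the threshold (limma adjusted p = 0.0877). The set 1375732_at had 339.8 on both DRlyp/lyp arrays, against 290.8 and 228.7 in the DR+/+ pool, and was higher by 0.40 (0.08 to 0.72, 1.32-fold, adjusted p = 0.0482). This call lay at the edge of the threshold: it ended when DRlyp/lyp replicate 1 or 2 was left out, with the difference still at 0.40 (adjusted p = 0.213 and 0.208). Without DR+/+ replicate 2 the difference itself was smaller, at 0.22 (adjusted p = 0.198), and without DR+/+ replicate 1 it was larger, at 0.57 (adjusted p = 0.0125). It was also lost with array medians made equal (0.29, adjusted p = 0.161), without a filter (0.28) and without the trend (0.14). The set 1379603_at had 88.6 and 60.3 in the DRlyp/lyp pool, against 112.5 and 78.1 in the DR+/+ pool, with overlap, and its difference of -0.36 (-0.96 to 0.24) was not past the threshold (adjusted p = 0.325). The fourth set, 1380069_at, was below the filter on all arrays (22.2 and 22.8 in the DRlyp/lyp pool against 20.4 and 12.7 in the DR+/+ pool). The 4 Cbl sets therefore give no single direction.

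**Figure D2:**
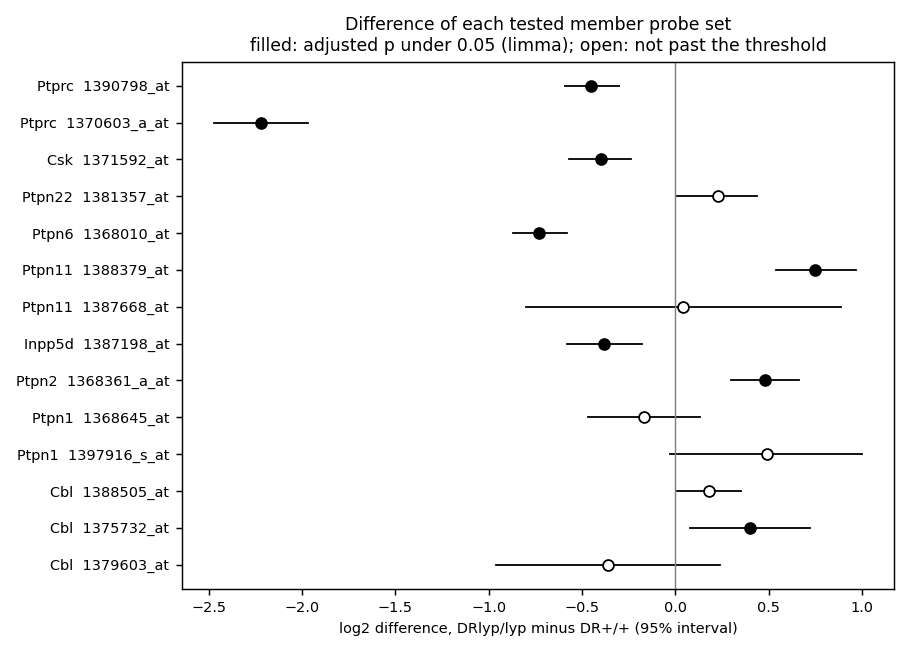
Log2 difference, DRlyp/lyp minus DR+/+ (horizontal axis), with its 95% interval from limma, of the 14 tested member probe sets (vertical axis). Filled points are past an adjusted p of 0.05 and open ones are not; 1370603_a_at of Ptprc stands apart at -2.22, and the other 13 lie between -0.73 and 0.75.

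Of the 9 genes, 8 have a promoter window in the RefSeq-based table of the GRCr8 assembly (250 bases before to 50 after the annotated start; Csk was not found in it). The windows of the lower genes Ptprc, Ptpn6 and Inpp5d and of the higher genes Ptpn11 and Ptpn2 are shown because these genes moved in opposite directions. Each is written 5′ to 3′ along the gene, and capitals mark AGGAAGT, a core that ETS family factors such as PU.1 can bind, or its reverse complement.
Ptprc, chr13:52259697-52259996, minus strand: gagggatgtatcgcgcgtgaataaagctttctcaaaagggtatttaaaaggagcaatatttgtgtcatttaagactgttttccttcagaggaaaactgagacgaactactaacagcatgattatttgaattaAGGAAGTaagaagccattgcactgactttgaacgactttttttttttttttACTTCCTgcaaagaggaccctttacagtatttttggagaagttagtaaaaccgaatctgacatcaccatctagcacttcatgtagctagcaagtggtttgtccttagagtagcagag
Ptpn6, chr4:159237020-159237319, minus strand: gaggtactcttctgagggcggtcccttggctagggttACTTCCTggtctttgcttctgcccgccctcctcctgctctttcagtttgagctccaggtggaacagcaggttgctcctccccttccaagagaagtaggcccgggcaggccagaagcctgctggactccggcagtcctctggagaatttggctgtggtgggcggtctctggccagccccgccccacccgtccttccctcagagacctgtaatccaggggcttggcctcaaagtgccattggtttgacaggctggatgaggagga
Inpp5d, chr9:95735283-95735582, plus strand: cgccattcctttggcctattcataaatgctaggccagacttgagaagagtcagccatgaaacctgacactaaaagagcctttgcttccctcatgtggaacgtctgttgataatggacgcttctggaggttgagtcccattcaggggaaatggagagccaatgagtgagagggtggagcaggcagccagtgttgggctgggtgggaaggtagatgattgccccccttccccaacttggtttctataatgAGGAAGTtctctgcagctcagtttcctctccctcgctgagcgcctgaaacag
Ptpn11, chr12:41025829-41026128, plus strand: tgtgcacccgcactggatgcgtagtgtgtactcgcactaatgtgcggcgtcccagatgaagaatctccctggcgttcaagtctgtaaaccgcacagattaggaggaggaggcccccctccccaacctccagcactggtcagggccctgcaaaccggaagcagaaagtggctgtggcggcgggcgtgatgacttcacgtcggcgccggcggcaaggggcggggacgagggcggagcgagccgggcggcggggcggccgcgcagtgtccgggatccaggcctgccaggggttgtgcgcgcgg
Ptpn2, chr18:63564432-63564731, minus strand: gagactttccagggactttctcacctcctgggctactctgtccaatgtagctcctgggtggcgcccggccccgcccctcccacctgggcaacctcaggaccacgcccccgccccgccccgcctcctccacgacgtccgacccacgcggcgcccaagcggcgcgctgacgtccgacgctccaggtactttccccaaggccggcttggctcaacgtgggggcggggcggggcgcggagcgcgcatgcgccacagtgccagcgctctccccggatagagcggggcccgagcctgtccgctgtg

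AGGAAGT, searched on both strands, was chosen after the windows had been read, so what follows is a description. It was found in 3 of the 8 member windows and in 8.41% of all 33469 windows of this length. The matches were in Ptprc (positions -118 and -67, where 0 is the annotated start), Ptpn6 (position -213) and Inpp5d (position -2). No match was found in the windows of Ptpn11, Ptpn2, Ptpn22, Ptpn1 and Cbl. Only this exact string was searched, and near variants were not counted. The Ptpn1 window holds CGGAAGT on both strands and the Ptpn11 window CGGAAGC, so the split between genes is that of this string alone. GGGCGG, the GC box that Sp1 can bind, was found in 5 of the 8 (Ptpn6, Ptpn11, Ptpn2, Ptpn1 and Cbl) and in 33.1% of all windows. No AGGAAGT match overlapped a GGGCGG match. The windows also differ in base composition: Ptprc had 37.3% G and C with 6 CpG pairs, Inpp5d 51.7% with 5 and Ptpn6 60.7% with 7, against 67.7% with 30 in Ptpn11 and 72.7% with 33 in Ptpn2. Ptpn22, not past the threshold, had 50.0% with 4, and Ptpn1 and Cbl 73.3% with 38 and 76.3% with 44. The median over all windows was 51.7% with 7. A match is no evidence of binding, and no factor was measured.

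The partners of the 9 genes were described in 8 lists of 167 genes, of which 133 had a probe set with 1 symbol and 121 were tested, each by its brightest tested set. Of the 121, 39 were higher and 27 lower, or 54.5% called in all, against 42.0% of all 9349 genes tested (20.9% higher and 21.1% lower). The median log2 difference was 0.00 over the 121 and 0.00 over all genes, and -0.17 over the 9 members with 1 set each. The lists were neither uniformly higher nor uniformly lower. The share called ranged from 46.2% (Csk and Ptpn22 partners) to 66.7% (Src, Syk, Tec and Jak family kinases). It was near the 42.0% of all genes for the Csk and Ptpn22 partners and the diacylglycerol kinase list (47.4%). The same holds for the other tyrosine phosphatases and the Cbl list (50.0% each). With no filter on dim probe sets 10 partner genes were higher and 8 lower. Under that setting 5.38% of all probe sets were called, against 39.2% in the main setting. For each list, the called gene with the largest difference in each direction is given below.

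Among kinases that the members act on, 4 of 15 of the Src, Syk, Tec and Jak families were higher and 6 lower (median 0.01). Zap70, the T cell kinase of the Syk family and a target of Ptpn22, had 1362.4 and 1270.1 signal units in the DRlyp/lyp pool, against 254.2 and 315.1 in the DR+/+ pool (4.65-fold higher, limma adjusted p = 1.13e-07). With the mean of its probe sets the log2 difference of Zap70 was 1.4, against 2.22 for this set, and still past the threshold. Btk, the Tec family kinase of B cells and mast cells, had 464.2 and 484.5 in the DRlyp/lyp pool, against 994.4 and 997.5 in the DR+/+ pool (2.1-fold lower, adjusted p = 5.73e-06). The summed signals of the T cell and B cell lists given above went the same ways as Zap70 and Btk. Zap70 is itself among those T cell markers and is part of their sum, so its likeness to that sum is partly built in. The summed signal of the mast cell list went the other way from Btk (7034.6 to 7338.8 in DRlyp/lyp against 4982.6 to 5008.3 in DR+/+). That sum weighs its brightest genes most, Srgn (3748.6 and 4098.6 against 2846.0 and 2944.8) and Mcpt1, both called higher. The list itself was mixed: Cpa3, Cma1 and Ms4a2 were not past the threshold, and Tpsab1, Tpsb2 and Hpgds were lower. The part of these cells was not tested.

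Of 14 tested inhibitory receptors that recruit SHP or SHIP, 4 were higher and 4 lower (median -0.22). Cd5, a brake on the T cell receptor, had 331.7 and 356.9 signal units in the DRlyp/lyp pool, against 108.9 and 133.6 in the DR+/+ pool (2.85-fold higher, limma adjusted p = 2.74e-05). Clec12a, an inhibitory lectin of myeloid cells, had 106.7 and 144.4 in the DRlyp/lyp pool, against 270.1 and 264.8 in the DR+/+ pool (2.15-fold lower, adjusted p = 0.000529). Cd5 is among the T cell markers above. Of the 16 macrophage and dendritic cell markers there, 9 were lower and 5 higher, and of 5 neutrophil markers 3 were higher and 0 lower. The part of the cell mix was not tested.

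The nearest partners of Csk and Ptpn22 gave 5 higher and 1 lower of 13 (median 0.14). Skap1, a T cell adaptor that binds Fyb1, had 537.3 and 535.5 signal units in the DRlyp/lyp pool, against 98.9 and 86.9 in the DR+/+ pool (5.79-fold higher, limma adjusted p = 2.53e-07). Sit1, a lymphocyte membrane adaptor that recruits SHP-2 and Csk, had 371.8 and 282.4 in the DRlyp/lyp pool, against 482.5 and 559.3 in the DR+/+ pool (1.6-fold lower, adjusted p = 0.00309). Leaving out DRlyp/lyp replicate 2 ended that call (0.0631).

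SHP-2 scaffolds and Ras pathway partners gave 4 higher and 4 lower of 13 (median -0.01). Gab1, a scaffold that binds SHP-2, had 186.1 and 175.1 signal units in the DRlyp/lyp pool, against 88.5 and 80.9 in the DR+/+ pool, and was higher like Ptpn11 itself (2.13-fold, limma adjusted p = 0.000777). Rasa1, which switches Ras off, had 144.2 and 206.5 in the DRlyp/lyp pool, against 384.1 and 388.3 in the DR+/+ pool (2.24-fold lower, adjusted p = 0.000276). The mean of the Rasa1 probe sets gave a log2 difference of -0.81, against -1.16 for this set, and the call was kept.

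Lipid phosphatases and SHIP partners gave 7 higher and 2 lower of 17 (median -0.10). Inpp4b, an inositol phosphatase that acts after SHIP, had 44.8 and 30.4 signal units in the DRlyp/lyp pool, against 8.9 and 16.6 in the DR+/+ pool. Both DR+/+ arrays were below the filter, and Inpp4b was tested only because its DRlyp/lyp arrays passed it. Its call as higher (limma adjusted p = 0.0233) is therefore given as a description and carries no weight for the direction. The mean of the DRlyp/lyp arrays was 1.3-fold the filter. That call was lost without DRlyp/lyp replicate 1 (0.231), DRlyp/lyp replicate 2 (0.0756) or DR+/+ replicate 1 (0.0768). Dok3, an adaptor that recruits SHIP in B cells and macrophages, had 204.8 and 222.4 in the DRlyp/lyp pool, against 354.6 and 375.3 in the DR+/+ pool (1.71-fold lower, adjusted p = 0.000803).

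Of 16 other tyrosine phosphatases 5 were higher and 3 lower (median 0.12). Ptpn13, a large cytoplasmic phosphatase, had 70.8 and 88.9 signal units in the DRlyp/lyp pool, against 34.3 and 27.9 in the DR+/+ pool (2.56-fold higher, limma adjusted p = 0.00392, lost without DRlyp/lyp replicate 2 at 0.0786). Ptprj, also called CD148, a receptor-type phosphatase that like CD45 acts on Src-family kinases, had 690.5 and 921.9 in the DRlyp/lyp pool, against 1436.4 and 1282.6 in the DR+/+ pool (1.7-fold lower, adjusted p = 0.000455). The mean of the Ptprj probe sets gave a log2 difference of -0.42, against -0.77 for this set, and the call was kept.

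Of 18 members of the Cbl family and its partners 6 were higher and 3 lower (median 0.10). Nedd4, a ubiquitin ligase, had 368.9 and 350.5 signal units in the DRlyp/lyp pool, against 132.3 and 174.1 in the DR+/+ pool (2.37-fold higher, limma adjusted p = 0.000118). The mean of the Nedd4 probe sets gave a log2 difference of 1.5, against 1.24 for this set. Tsg101, which sorts ubiquitin-tagged receptors, had 156.8 and 150.9 in the DRlyp/lyp pool, against 215.4 and 231.6 in the DR+/+ pool (1.45-fold lower, adjusted p = 0.0173). The Tsg101 call was lost without DRlyp/lyp replicate 1 (0.0948), DRlyp/lyp replicate 2 (0.12) or DR+/+ replicate 2 (0.0546).

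Of 19 diacylglycerol kinases and other brakes on second messengers 5 were higher and 4 lower (median 0.08). Dgke, a diacylglycerol kinase, had 107.2 and 80.0 signal units in the DRlyp/lyp pool, against 30.6 and 22.1 in the DR+/+ pool (3.56-fold higher, limma adjusted p = 0.000803). Rgs2, which shortens signalling by G protein coupled receptors, had 600.2 and 594.0 in the DRlyp/lyp pool, against 1175.6 and 1159.6 in the DR+/+ pool (1.96-fold lower, adjusted p = 6.79e-06). The mean of the Rgs2 probe sets gave a log2 difference of -1.3, against -0.97 for this set.

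**Figure D3:**
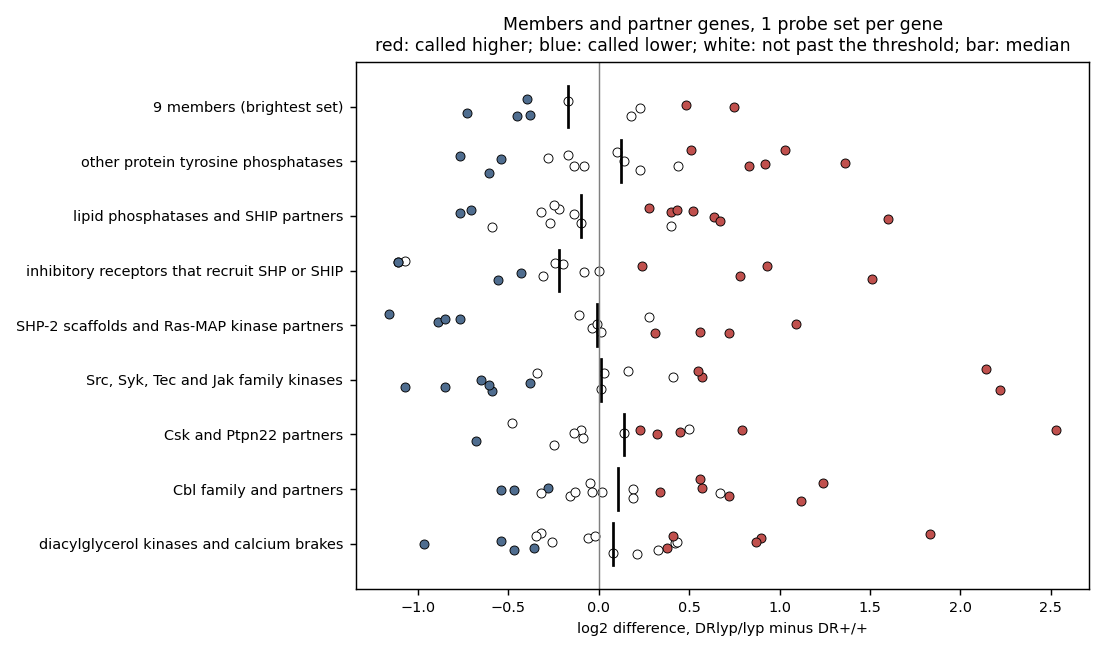
Log2 difference, DRlyp/lyp minus DR+/+ (horizontal axis), of the 9 members and of the tested genes of 8 partner lists (rows), with 1 probe set per gene. Red points were called higher, blue ones lower and white ones neither, and bars are medians, which lie between -0.22 and 0.14 in all rows.

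Of the 8 called member sets, 6 (both of Ptprc and those of Csk, Ptpn6, Ptpn11 and Ptpn2) kept their call when any 1 array was left out, and 2 (Inpp5d and 1375732_at of Cbl) did not. With array medians made equal, which moved the median of all tested probe sets by -0.11, 2 members were called higher and 5 lower, against 3 and 5, and 36.1% of all calls were higher, against 49.3%.

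**Figure D4:**
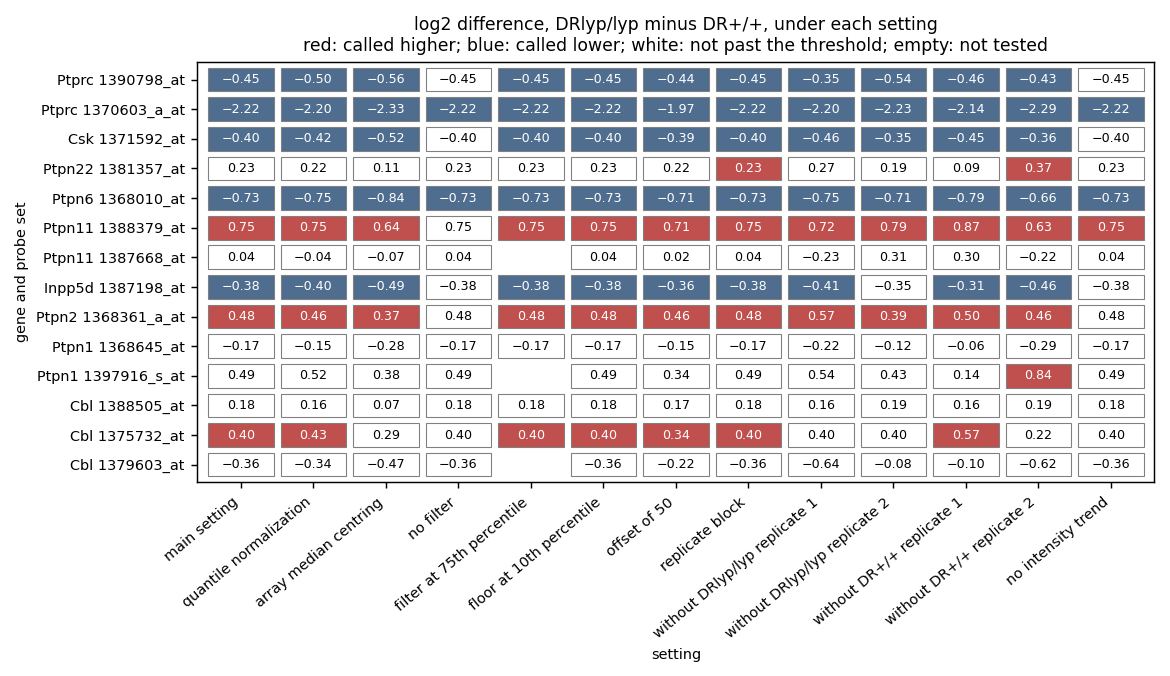
Log2 difference, DRlyp/lyp minus DR+/+, printed in each cell for the 14 tested member probe sets (rows) under the main setting and each alternative (columns). Red cells were called higher and blue ones lower at an adjusted p of 0.05, and white ones were not called; Ptpn6 and 1370603_a_at of Ptprc are blue in every column.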

How the data were processed

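Total RNA of 2 pools of sorted cells was hybridised to the Affymetrix Rat Genome 230 2.0 array after about 50 ng had been amplified in 2 cycles, per the labels' design text. Sample titles gave the groups (DP, read as DRlyp/lyp, and DR, read as DR+/+, from each sample's description) and the replicate numbers. The authors deposited 1 intensity on a linear scale for each probe set of an array. Which program summarised the probes is not given in the sources used here. Their 2% trimmed mean was 150.1 on each array, and they were kept as deposited.

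Of 31099 probe sets, 57 controls were left out. Signals under 6.8, the 25th percentile over all arrays, were set to it before taking log2. The 16068 sets with signal over 28.3, the median over all arrays, on 2 or more arrays were tested with limma 3.58.1 in R 4.3.3 (lmFit, eBayes with an intensity trend, 2 residual degrees of freedom), two-sided, with Benjamini-Hochberg adjustment over all of them. The fit was run on simulated data with independent noise to check the code, which does not show how many calls here are true. Symbols came from the platform annotation, and all 9 member genes were found in RefSeq's GRCr8 table. The files name no genome build.

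The members, partner and marker lists were chosen with earlier results of these data known, so no list was tested. Named are all member sets, the defining markers, some further mast cell markers and, per partner list, up to 3 called genes each way, of which the largest each way is printed. Alternatives were other scaling, filters, floors and priors, a replicate block, leaving out each array and, added after seeing the data, the mean of a member's sets. Figures were drawn with matplotlib 3.10.9.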

Additional observations from a re-analysis of the deposited data

How the results depend on the processing

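Both the size of some member differences and the number past the threshold changed with the setting. The difference ranged from 0.14 to 0.84 for 1397916_s_at of Ptpn1, from 0.09 to 0.37 for 1381357_at of Ptpn22, from 0.22 to 0.57 for 1375732_at of Cbl and from -0.64 to -0.08 for 1379603_at of Cbl, and with the mean of its sets Ptprc differed by -1.33. Without a filter on dim probe sets, the members' calls came to 0 higher and 2 lower, against 3 and 5, with 5.38% of all sets called. Without an intensity trend they came to 1 and 2, with 25.2% of all called, above the members' 21.4%. Leaving out each array gave 2 to 4 higher and 4 to 5 lower, with 21.6% to 36.1% of all called. Over the partner lists, 39 genes were higher and 27 lower. Without a filter these were 10 and 8, and without the trend 25 were higher. Leaving out each array gave 22 to 35 higher and 20 to 25 lower. The cause was not tested. The ratio of Ptpn6 to Ptpn11 differed by -1.66 to -1.30 with 1 array left out and by -1.12 with the mean of each gene's sets. The sign turned for 1387668_at of Ptpn11 with quantile normalization (-0.04), with array medians made equal (-0.07), and without DRlyp/lyp replicate 1 (-0.23) or DR+/+ replicate 2 (-0.22; -0.23 to 0.31 over all arrays left out), for Ptpn1 with the mean of its sets (0.16), for Fyn with the mean of its sets (-0.41, adjusted p = 0.0153), for Ms4a2 without DR+/+ replicate 1 (0.13; range -0.31 to 0.13), and for Cma1 with quantile normalization (0.01), without DRlyp/lyp replicate 2 (0.08; range -0.11 to 0.08) and without DR+/+ replicate 2 (0.06). Of 44 partner genes chosen for naming, 30 lost their call without a filter and 12 without DRlyp/lyp replicate 2. Same-numbered arrays share only a number, and their deviations from the pool means correlated at 0.0438 over the tested probe sets. With the replicate block, 4 members were higher and 5 lower.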
